A study of Mus musculus with 6 samples.

Results

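The 6 genes described here, Tmem59l, Cdhr2, Mpzl2, Dlx1, Fcrl6 and Gpr171, were picked from 22099 measured mouse genes because their values were far lower in both libraries of the ZnF4 mutant. The groups were the ZnF4 mutant, homozygous for loss of zinc finger 4 of Ikaros (Ikaros_ZnF4-/-), the ZnF1 mutant, homozygous for loss of zinc finger 1 (Ikaros_ZnF1-/-), and wild type (wt), with 2 libraries each. All 6 cultures started from whole bone marrow of C57BL/6 mice transduced at day 0 with a retrovirus for the BCR-ABL p185 fusion kinase and a yellow fluorescent protein, and all were harvested at day 14 in vitro. The labels call them transformed pro-B acute lymphoblastic leukaemia cells, and they give the 2 libraries of a group as biological replicates without stating whether these came from separate animals. Polyadenylated RNA was sequenced, and levels are RPKM, that is, read numbers scaled to transcript length and library size. The labels do not mention a sort for transduced cells, so other marrow cells can be present in each culture.

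Ikaros, encoded by Ikzf1, is a DNA-binding protein with a cluster of zinc fingers that is required for lymphocyte development and acts as a tumour suppressor in B cell leukaemia driven by BCR-ABL. Its middle fingers contact a core motif with the letters GGGAA, and the outer fingers, 1 and 4, influence which sites are bound. The 6 genes belong to no common pathway. Gpr171 encodes a G protein coupled receptor of the P2Y-like family, and Fcrl6 an Fc receptor-like immunoglobulin superfamily protein that in humans marks cytotoxic lymphocytes. Cdhr2 encodes a cadherin-related protein that links intestinal microvilli, and Mpzl2 a homophilic adhesion protein of the immunoglobulin superfamily known from thymic epithelium. Tmem59l encodes a membrane glycoprotein related to Tmem59 and known mainly from brain, and Dlx1 a homeodomain transcription factor of forebrain interneurons.

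Upstream sequence is shown for the genes that the RefSeq promoter table (build GRCm38.p6) covers, since the 6 genes were low together and the GGGAA core of Ikaros can be looked up in it. The table held 4 of the 6 genes, and the window of Dlx1 lay in annotated exon sequence and is not shown. Each line gives 240 bases on the strand of the gene, 5' to 3', stopping short of the annotated start so that no exon base is included, with GGGAA or its complement TTCCC in capitals. The windows are chr8:70487359-70487598 (minus strand) for Tmem59l, chr13:54701213-54701452 (plus strand) for Cdhr2 and chr1:172602562-172602801 (minus strand) for Fcrl6.
Tmem59l: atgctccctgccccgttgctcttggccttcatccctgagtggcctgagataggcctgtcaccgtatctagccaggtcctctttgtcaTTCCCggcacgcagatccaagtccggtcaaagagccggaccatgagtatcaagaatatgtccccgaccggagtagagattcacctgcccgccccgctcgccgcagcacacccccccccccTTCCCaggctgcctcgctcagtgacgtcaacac
Cdhr2: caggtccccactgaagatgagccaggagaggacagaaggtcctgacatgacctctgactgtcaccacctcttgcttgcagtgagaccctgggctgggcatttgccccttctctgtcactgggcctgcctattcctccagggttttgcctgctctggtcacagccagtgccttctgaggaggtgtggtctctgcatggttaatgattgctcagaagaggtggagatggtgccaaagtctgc
Fcrl6: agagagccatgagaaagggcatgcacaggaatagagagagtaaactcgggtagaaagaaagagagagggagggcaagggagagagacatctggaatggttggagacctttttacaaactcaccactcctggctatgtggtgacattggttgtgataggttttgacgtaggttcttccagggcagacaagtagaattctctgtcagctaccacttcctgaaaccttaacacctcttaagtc
The window of Tmem59l held 2 matches to GGGAA on either strand, beginning 163 and 43 bases before the start, and 1 of these was part of TGGGAA. The windows of Cdhr2 and Fcrl6 held 0, as did that of Dlx1. Of all 32851 windows of this length in the table, 54.7% held GGGAA on either strand and 20.8% held TGGGAA, a longer form that overlaps it. A match is a run of letters and no evidence of binding, and windows without one say nothing about sites elsewhere.

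Each of the 6 genes was represented by 1 RefSeq transcript. The choice used the ZnF4 mutant libraries, so the levels in that mutant, and its differences from wt and from the ZnF1 mutant, are a description and were not tested.

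Gpr171, the P2Y-like receptor gene, had 1.7 and 2 RPKM in ZnF4 mutant replicates 1 and 2. The same replicates of the ZnF1 mutant had 45.7 and 30.3, and those of wt 32.3 and 30.3. Its mean was 1.85 ± 0.212 RPKM (SD, n = 2) in the ZnF4 mutant, 38 ± 10.9 in ZnF1 mutant libraries and 31.3 ± 1.41 in wt libraries. The ZnF4 mutant thus kept 5.91% of the wt level, the largest share among the 6 genes, and its libraries lay far below the other 4, which overlapped each other.

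Fcrl6, the Fc receptor-like gene, had 0.2 RPKM in both ZnF4 mutant libraries. ZnF1 mutant libraries had 10.9 and 6.6, and wt libraries 11.7 and 16. The share of the wt level kept in the ZnF4 mutant was 1.44%, and because values carry 1 decimal, it could lie between 1.08% and 1.81%. Both ZnF1 mutant libraries were below both wt libraries, by a narrow margin in the closest pair.

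For Cdhr2, the microvillar cadherin gene, the ZnF4 mutant libraries gave 0.9 and 0.6 RPKM, those of the ZnF1 mutant 43.8 and 40.8, and those of wt 45 and 44. The ZnF4 mutant kept 1.69% of the wt mean, while the ZnF1 mutant kept 95.1% of it. The lowest value outside the ZnF4 mutant was 45.3-fold the higher ZnF4 mutant value, and the ZnF1 mutant and wt lay side by side.

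Mpzl2, the adhesion gene, had 4 and 4.1 RPKM in ZnF4 mutant libraries, 97.8 and 37.4 in ZnF1 mutant libraries and 129.7 and 79 in wt libraries, the highest wt level of the 6. It kept 3.88% of the wt level in the ZnF4 mutant. At a mean of 4.05 RPKM it was still above 24.4% of all genes tested in that mutant, so Mpzl2 was strongly reduced and not silent.

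Tmem59l, the Golgi membrane protein gene, had 0.7 and 0.4 RPKM in ZnF4 mutant libraries, 18 and 5.6 in ZnF1 mutant libraries and 77.4 and 36.2 in wt libraries. Its mean was 0.55 ± 0.212 RPKM in the ZnF4 mutant and 56.8 ± 29.1 in wt (SD, n = 2), which is 103-fold higher in wt. It was the gene with the lowest computed share kept, 0.968%, and the 3 groups did not overlap. Given the rounding of the values, the share could lie between 0.88% and 1.06%. That range overlaps the one of Dlx1 (0.926% to 1.55%), so which of these 2 genes kept less is not settled. In every group replicate 1 was higher than replicate 2, by 1.75-fold in the ZnF4 mutant, 3.21-fold in the ZnF1 mutant and 2.14-fold in wt.

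Dlx1, the homeobox gene, was measured at 0.2 RPKM in both ZnF4 mutant libraries, against 14.9 and 9 in ZnF1 mutant libraries and 18.3 and 14 in wt libraries. The ZnF4 mutant kept 1.24% of the wt level, or between 0.926% and 1.55% given the rounding of the values. The antisense gene Dlx1as overlaps it and had 0.1 RPKM in both ZnF4 mutant libraries, 6.7 and 3.5 in ZnF1 mutant libraries and 8.5 and 4.8 in wt libraries. No source used here says whether reads were counted by strand, so reads of the 2 genes cannot be told apart.

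**Figure D1:**
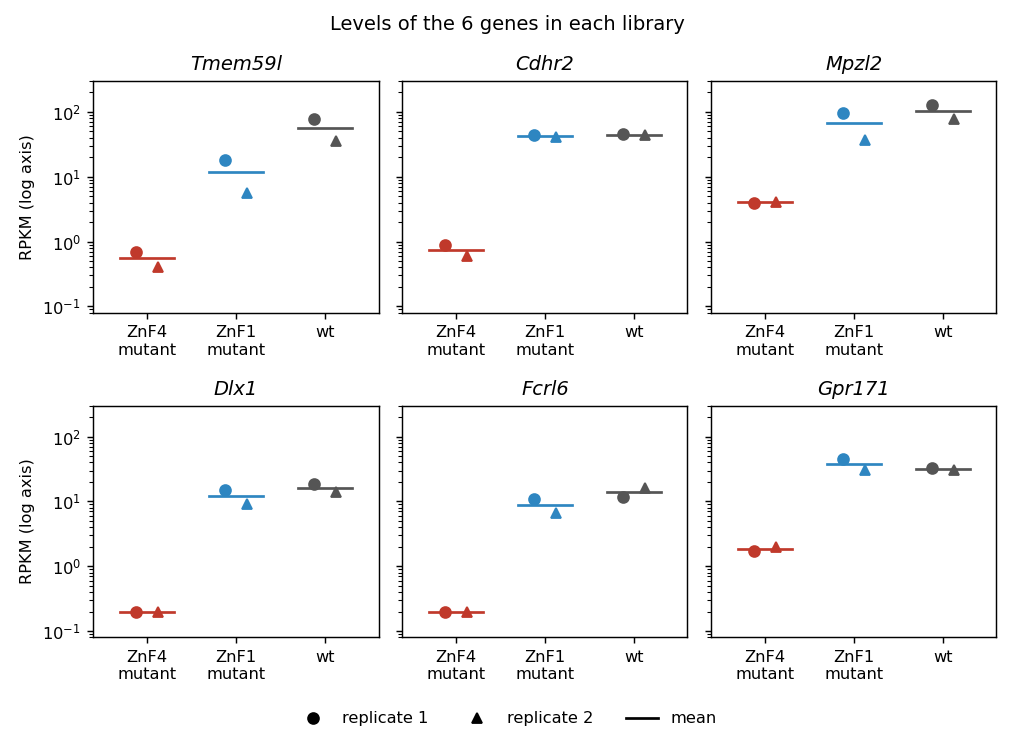
RPKM of the 6 genes on a log axis in each library, with the groups along the horizontal axis, replicates 1 and 2 as circles and triangles, and lines at group means. In each panel both ZnF4 mutant values, from 0.2 to 4.1 RPKM across the genes, lie below all 4 other values.

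In the ZnF4 mutant against wt, 6 of 6 genes had groups that did not overlap and were lower in the mutant, as the choice required. Among all 11345 genes tested 13.8% did so. In the ZnF4 against the ZnF1 mutant, where the choice used the same ZnF4 mutant libraries, it was again 6 of 6, against 21.8% of all genes that were lower without overlap and 21.7% that were higher. On the log2(RPKM + 1) scale, which understates changes of low values, the differences between the ZnF4 mutant and wt were −5.13 for Tmem59l, −4.71 for Cdhr2, −4.34 for Mpzl2, −3.83 for Dlx1, −3.61 for Fcrl6 and −3.5 for Gpr171. All genes tested had a median of 0.04. These values ranked 3, 4, 5, 8, 10 and 11 when genes were ordered from the largest fall. The order by share kept was different, with Dlx1 below Cdhr2 and Mpzl2 and Fcrl6 below Mpzl2, because the added 1 RPKM weighs more on genes that start low. Fcrl6 (1.08% to 1.81% given the rounding) and Cdhr2 (1.57% to 1.8%) could not be ordered by share.

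The ZnF4 minus ZnF1 mutant differences ranged from −4.63 for Cdhr2 to −2.86 for Tmem59l. Counted from the largest fall, Tmem59l ranked 32 in this comparison, against 1 for Cdhr2, 7 for Gpr171, 8 for Mpzl2, 12 for Dlx1 and 25 for Fcrl6. Both comparisons share the ZnF4 mutant libraries, so their likeness is no separate result.

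The comparison of the ZnF1 mutant with wt did not use the libraries in which the genes were low, although the wt libraries also entered the choice. Here Tmem59l had the largest fall of the 6, with 11.8 ± 8.77 RPKM in ZnF1 mutant libraries and 56.8 ± 29.1 in wt libraries (SD, n = 2), a log2 difference of −2.27 (SE 0.59). The others were closer to wt. Mpzl2 differed by −0.73 (SE 0.49), Fcrl6 by −0.63 (SE 0.27), Dlx1 by −0.43 (SE 0.27), Cdhr2 by −0.07 (SE 0.16) and Gpr171 by 0.24 (SE 0.23).

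The limma test, two-sided, used log2(RPKM + 1) of all 6 libraries together, with Benjamini-Hochberg adjustment over 11345 genes with a threshold of 0.05. None of the 6 genes passed in the ZnF1 mutant against wt (0 of 6, 1 at an unadjusted p under 0.05), and 0% of all genes did. The limma adjusted p was 0.2 for Tmem59l, 0.52 for Fcrl6, 0.83 for Dlx1, 0.88 for Mpzl2 and 1 for Cdhr2 and Gpr171. With the replicate number as a block, 1 of 6 passed, Tmem59l (adjusted p = 0.014), where 13.2% of all genes were called and 2.88% were called lower. The adjusted p with the block was 0.17 for Dlx1, 0.18 for Fcrl6, 0.2 for Mpzl2, 0.42 for Gpr171 and 0.61 for Cdhr2. Groups did not overlap, with the mutant lower, for 3 of 6 genes, Tmem59l, Fcrl6 and Cdhr2, against 12.7% of all genes. The difference of Tmem59l was −1.51 without ZnF1 mutant replicate 2 and −3.03 without ZnF1 mutant replicate 1. A p that misses the threshold does not show that the other 5 genes were alike in the ZnF1 mutant and wt.

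**Figure D2:**
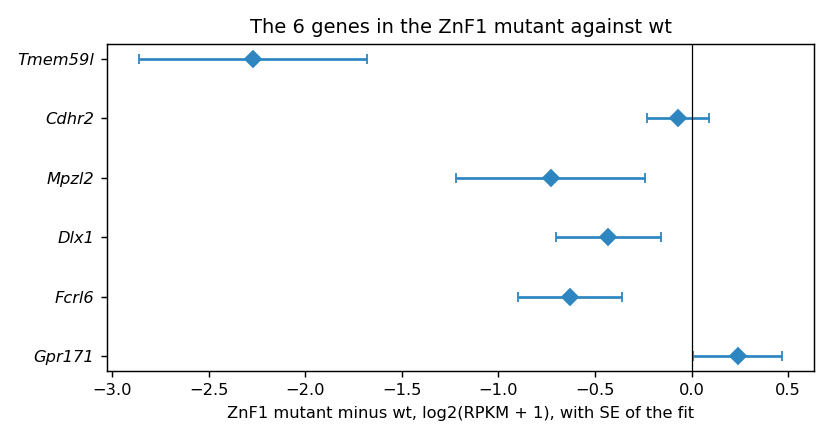
Difference between the ZnF1 mutant and wt in log2(RPKM + 1) for the 6 genes, with bars for the standard error of the fit (2 libraries in each group). Tmem59l lies at −2.27, and the other 5 genes lie between −0.73 and 0.24.

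The 6 genes were also compared with each other. Set side by side over the 6 libraries as log2(RPKM + 1) profiles centred on their means, Dlx1 and Fcrl6 were the most alike pair, with a root mean square difference of 0.28, followed by Dlx1 and Gpr171 at 0.29. Tmem59l and Gpr171 were the least alike at 1.12. The measure includes the ZnF4 mutant libraries used in the choice and is a description.

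By the same measure, the gene nearest to Tmem59l was Cxcr5, a chemokine receptor of B cells (0.45). Gldc, the glycine decarboxylase of the mitochondrial glycine cleavage system, was also among the 3 nearest to Tmem59l (0.64) and was the nearest gene to Cdhr2 (0.47) and to Mpzl2 (0.4). Prkcq, the protein kinase C theta gene, was nearest to Dlx1 (0.35) and to Fcrl6 (0.2), and Tnfrsf26, a receptor of the TNF receptor family, was nearest to Gpr171 (0.32). Prkcq had 1 and 1.3 RPKM in ZnF4 mutant libraries, 14.9 and 9.5 in ZnF1 mutant libraries and 22.2 and 22.9 in wt libraries. Tnfrsf26 had 0.7 and 1.3 RPKM in ZnF4 mutant libraries, 19.3 and 18.6 in ZnF1 mutant libraries and 13.1 and 13.8 in wt libraries. The remaining genes among the 3 nearest were Nov (0.57) and Tnfsf8 (0.61) for Cdhr2, Cxcr5 (0.43) and Prkcq (0.55) for Mpzl2, Ly6d (0.36) and Blk (0.39) for Dlx1, Dpp4 (0.27) and Pdzd2 (0.41) for Fcrl6, and Tnfsf8 (0.36) and Arl5c (0.38) for Gpr171.

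The 6 genes were not the only ones reduced this far. Among 8056 genes with a wt mean of at least 5 RPKM, 15 others kept a share in the ZnF4 mutant no larger than the 5.91% of Gpr171, so that 21 genes in all, 0.261%, met this limit. Camk2b, a calmodulin-dependent kinase gene, and Esrrb, an orphan nuclear receptor gene, were listed at 0 in both ZnF4 mutant libraries. Camk2b was also near 0 in the ZnF1 mutant, at 0.1 and 0 RPKM, against 6.9 and 5.3 in wt. Low shares were also those of Pdzd2 (1.32%), Dlx1as (1.5%), Ubash3a (1.55%), Gldc (2.43%), Cxcr5 (3.11%), Il2ra (3.31%) and Tnfsf8 (3.73%).

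The ZnF1 mutant kept at least 50% of the wt level in 5 of the 6 genes, all but Tmem59l, and in 6 of the 15 others. The share of all genes that did so was not counted. All genes tested had a median log2 difference of −0.01 between the ZnF1 mutant and wt, so keeping this much is not particular to these genes. Il2ra, the interleukin 2 receptor alpha chain gene, had 335% of the wt level in the ZnF1 mutant, and Tnfsf8, the ligand of CD30, had 173%. These shares were not tested here as a group, since both sets were picked by their values in the ZnF4 mutant.

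**Figure D3:**
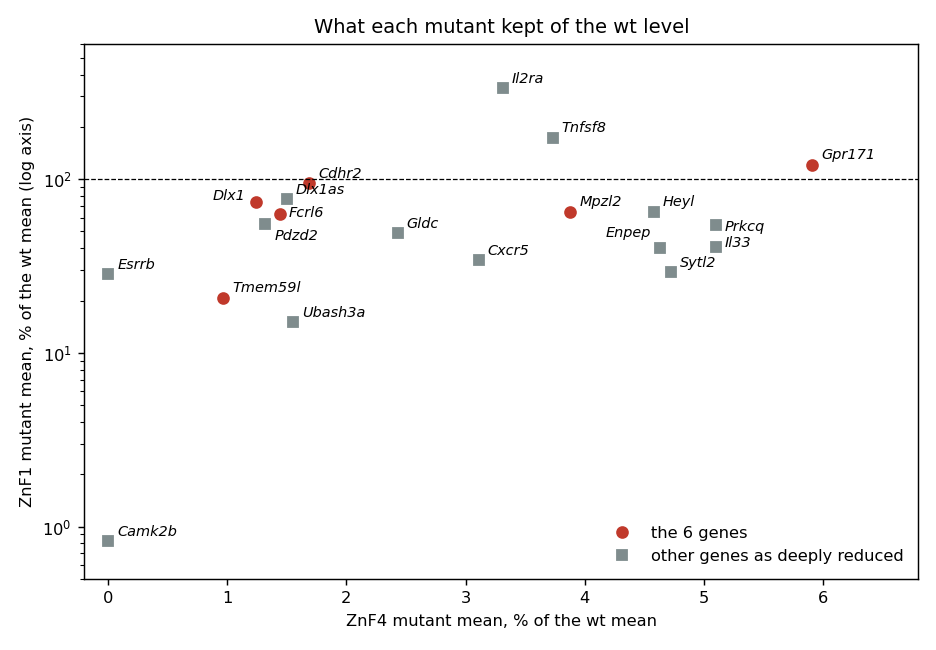
Mean level in the ZnF4 mutant (horizontal axis) and in the ZnF1 mutant (vertical log axis) as a percentage of the wt mean, for the 6 genes (red circles) and 14 of the others reduced as far (grey squares), with a dashed line at the wt level. Tmem59l, at 0.968% and 20.8%, is the one red circle well below 50% on the vertical axis, and Gpr171, at 5.91% and 121%, the one above the dashed line.

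Neighbouring genes were looked up to see how far along each chromosome the low values reached, by order in the RefSeq annotation of GRCm38 (the submitters' processing notes name mm9, so no coordinates are compared). Of the nearest 2 genes on each side of each gene, 20 are reported here, of which 11 were tested besides Dlx1as, whose reads cannot be told apart from those of Dlx1. In the ZnF4 mutant against wt, 0 of these 11 passed in either direction (limma, 2 at an unadjusted p under 0.05). They are not all of the neighbours, so the count does not hold for the whole set. Of all genes 2.72% were called, 1.3% as lower and 1.43% as higher. With the replicate block 2 fell and 1 rose, against 7.92% and 8.02% of all genes. The 1 that rose, Vsig8, entered the test through the ZnF4 mutant libraries alone. The median of the 11 was −0.15, and of all genes 0.04.

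Next to Tmem59l, Klhl26 differed between the ZnF4 mutant and wt by −0.57 (adjusted p = 0.56, or 0.011 with the block) and Crtc1, a CREB coactivator gene, by −0.15 (adjusted p = 1).

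Dlx1as differed by −2.75 in the ZnF4 mutant against wt, given as a description with no test, since its reads may be those of Dlx1. The next gene, Dlx2, was at 0.1 and 0 RPKM in the ZnF4 mutant and at 0.1 and 0 in wt, and the genes on the other side, Metap1d and Hat1, differed by 0.2 and 0.47 (adjusted p = 0.94 for both).

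Cdhr2 had the neighbours Rnf44 and Faf2, which differed between the ZnF4 mutant and wt by −0.23 and 0.06 (limma adjusted p = 1 for both). Gprin1, on the other side, was at 0 RPKM in both ZnF4 mutant libraries and at 0.3 and 0.4 in wt. Next to Mpzl2, its relative Mpzl3 differed by −0.54 (adjusted p = 0.37, or 0.043 with the block) and Amica1 by 0.09 (adjusted p = 1). The T cell receptor genes Cd3e and Cd3d, on the other side of Mpzl2, were at 0.1 RPKM or below in all libraries. Next to Fcrl6, the phosphatase gene Dusp23 differed by −0.19 (adjusted p = 1). Vsig8 differed by 1.03, with 1.3 and 2 RPKM in ZnF4 mutant libraries and 0.5 and 0.1 in wt libraries. It entered the test through the ZnF4 mutant libraries alone, so its value is a description.

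Gpr171 lies within Med12l, a Mediator subunit gene, next to other P2Y receptor genes. Med12l was at 0.4 RPKM in both ZnF4 mutant libraries and at 0.4 and 0.5 in wt. P2ry14, the nearest receptor gene, differed by −0.3 between the ZnF4 mutant and wt (adjusted p = 1) and had 13.6 and 8 RPKM in ZnF1 mutant libraries, against 3 and 1.5 in wt libraries. Leaving out either ZnF4 mutant library left 0 genes called among all genes.

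**Figure D4:**
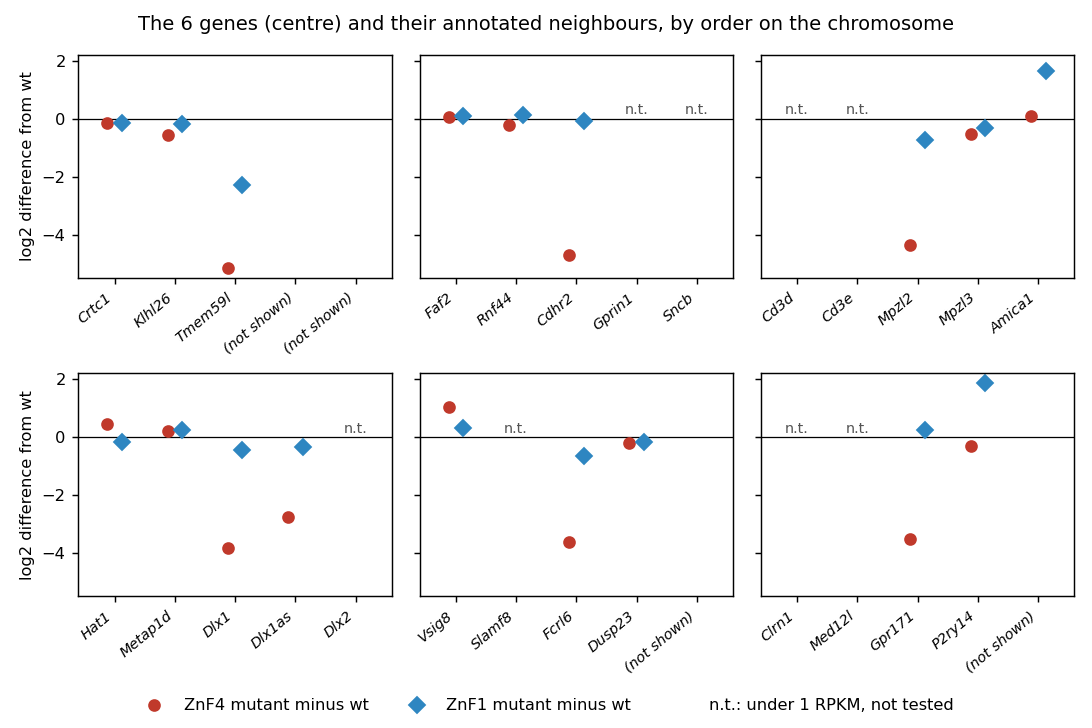
Difference from wt in log2(RPKM + 1) for the ZnF4 mutant (circles) and the ZnF1 mutant (diamonds), 1 panel for each of the 6 genes, with the gene in the centre and up to 2 annotated genes on each side in chromosomal order (not to distance). Dlx1as lies at −2.75 in the ZnF4 mutant, and the other neighbours drawn lie in that mutant between −0.57 and 1.03.

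Genes related to the 6 by family or function were tested as lists. Of a list of 18 genes, P2Y-like receptors without Gpr171 and the precursor of its peptide ligand, 10 were tested. In the ZnF4 mutant against wt 2 fell and 0 rose, against 1.3% of all genes that fell, with a median of −0.18. P2ry10, a lysophosphatidylserine receptor gene, was at 0.4 and 0.8 RPKM in the ZnF4 mutant and 7.8 and 9.9 in wt, a difference of −2.63 (limma adjusted p = 0.0085). Gpr18 was at 7.9 and 5 RPKM in the ZnF4 mutant and 38.5 and 29.6 in wt, a difference of −2.25 (adjusted p = 0.027). Gpr174, another lysophosphatidylserine receptor gene, was listed at 0 in both ZnF4 mutant libraries and at 1 and 2.1 RPKM in wt (adjusted p = 0.13, or 0.014 with the block). Like Gpr171, these 3 genes were at least as high in the ZnF1 mutant mean as in the wt mean. So were the rest of the 10 tested genes except Lpar5 (75.5% of the wt mean), so this does not set the 3 apart.

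Against the ZnF1 mutant, 5 of the 10 were lower in the ZnF4 mutant (P2ry10, Gpr18, Gpr174, P2ry14 and Ptafr), where 5.37% of all genes were called and 3.75% were called lower. With the block 6 were lower and 1 was higher, and of all genes 35.1% were called, 19.2% as lower. Lpar5 and Lpar6, lysophosphatidic acid receptor genes, differed by 0.04 and −0.13 between the ZnF4 mutant and wt (adjusted p = 1 for both). Pcsk1n, which encodes the precursor of the peptide that binds Gpr171, was listed at 0 in all libraries. With the block, 5 of the 10 were higher in the ZnF1 mutant than in wt, against 10.4% of all genes. Without it 0 were, with 5 at an unadjusted limma p under 0.05. The 12 myeloid markers summed to 1010.8 and 1113.4 RPKM in ZnF1 mutant libraries and to 355.5 and 415.4 in wt libraries, and their part in these differences was not tested. In the ZnF4 mutant the same sum was 386 and 417.6 RPKM.

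**Figure D5:**
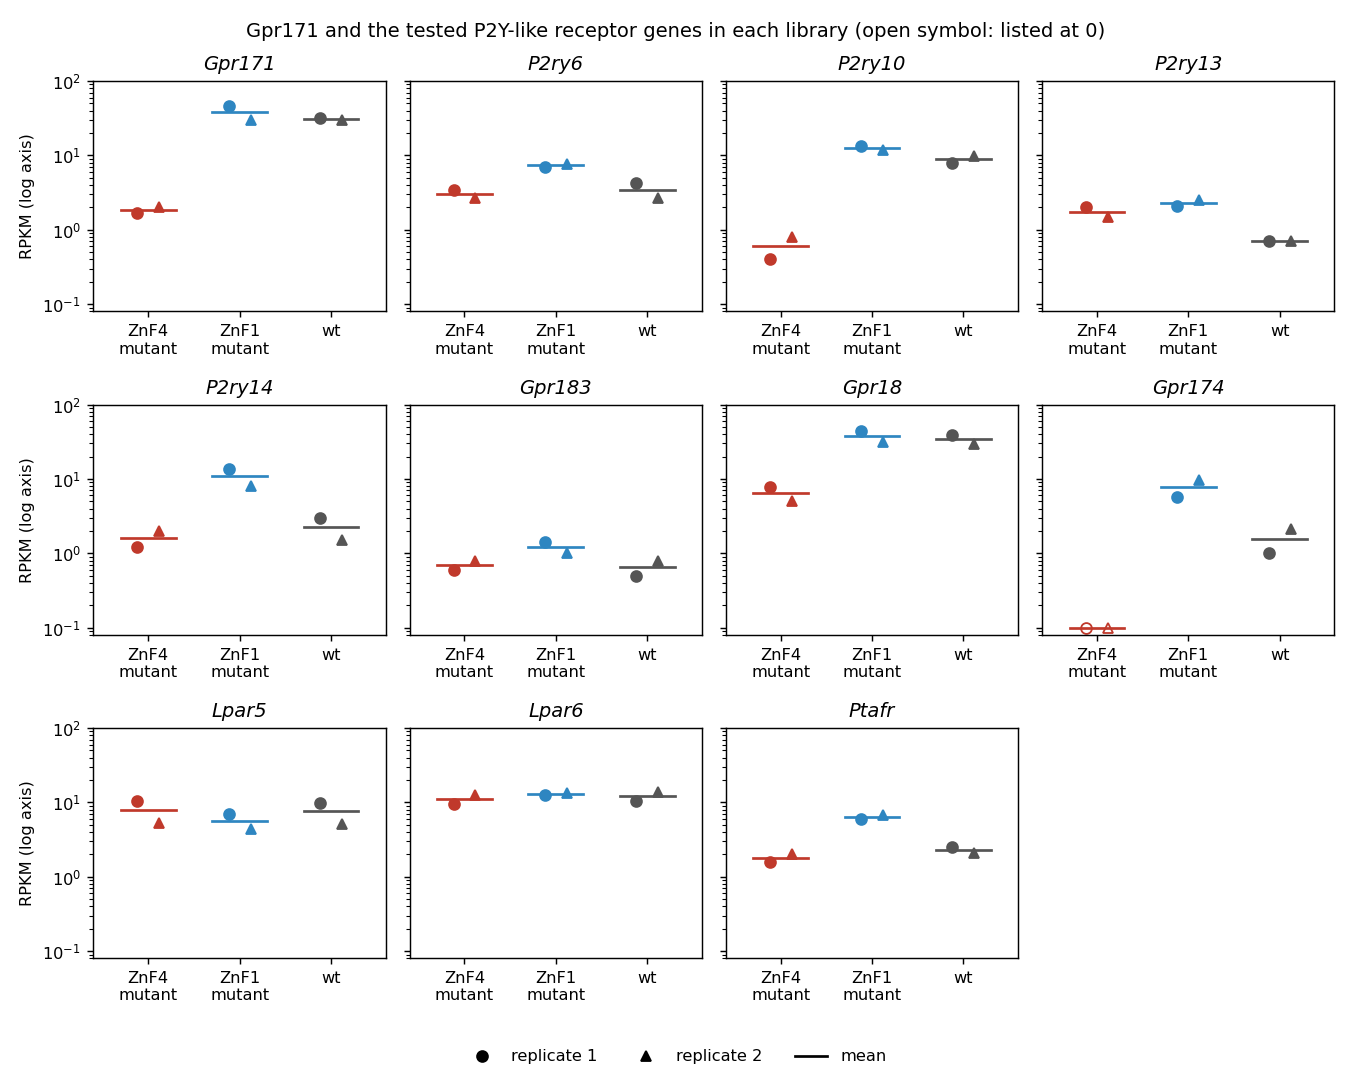
RPKM on a log axis of Gpr171 and the 10 tested P2Y-like receptor genes in each library, with the groups along the horizontal axis, replicates 1 and 2 as circles and triangles, and lines at group means. Gpr171, P2ry10, Gpr18 and Gpr174 are lowest in both ZnF4 mutant libraries, with Gpr174 listed at 0 there (open symbols at the foot of the axis). Ptafr is lowest there too, by a narrow margin from wt, and Lpar6 lies between 9.6 and 13.7 RPKM in all 6 libraries.

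Of 14 Fc receptor and Fc receptor-like genes, 9 were tested. In the ZnF4 mutant against wt none passed (limma, 0 of 9, 4 at an unadjusted p under 0.05), or 3 rose and 1 fell with the block. Of all genes 2.72% were called, or 8.02% as higher and 7.92% as lower with the block. Fcrl1, a relative of Fcrl6, was at 10.3 and 9.1 RPKM in the ZnF4 mutant and 4.9 and 5 in wt, a difference of 0.84 (adjusted p = 0.063, or 0.0048 with the block). The inhibitory receptor gene Fcgr2b was at 27.9 and 28.1 RPKM in the ZnF4 mutant and 16.9 and 15.6 in wt, a difference of 0.75 (adjusted p = 0.074, or 0.0056 with the block). Neither of them was low in the mutant in which Fcrl6 was at 0.2 RPKM.

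Of 16 cadherins and members of the microvillar adhesion complex, 6 were tested, and 1 fell in the ZnF4 mutant against wt, apart from Cdh5. Of all genes 1.3% were called as lower. Pcdh9, a protocadherin gene, fell by 2.07 (limma adjusted p = 0.016), with 10.1 and 8.5 RPKM in the ZnF4 mutant and 39.2 and 45 in wt. Cdh5, the cadherin of endothelial cells, was at 2.1 and 1.3 RPKM in the ZnF4 mutant and listed at 0 in wt. It entered the test through the ZnF4 mutant libraries alone, so its value is a description. Cdh17, a cadherin with a high level in all cultures, was at 168.1 and 217 RPKM in the ZnF4 mutant and 116.8 and 126.1 in wt (adjusted p = 0.34). Of the genes whose products join Cdhr2 in microvilli, Cdhr5, Ush1c, Myo7b and Anks4b were listed at 0 in all 6 libraries. Calml4, of the same complex, was at 0.1 to 0.3 RPKM in every library.

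Of 11 adhesion genes of the immunoglobulin superfamily, 4 were tested. In the ZnF4 mutant against wt 1 rose and 0 fell, or 1 rose and 2 fell with the block. Of all genes 1.43% were called as higher and 1.3% as lower, or 8.02% and 7.92% with the block. Mpzl1, a relative of Mpzl2, was higher, at 4.8 and 4.2 RPKM in the ZnF4 mutant and 1.1 and 1 in wt (log2 difference 1.42, limma adjusted p = 0.028). All 4 genes of the TMEM59 list were tested, and 1 rose and 0 fell, or 1 and 1 with the block, against the same shares of all genes. Tmem59, the widely expressed relative of Tmem59l, was at 43.7 and 38 RPKM in the ZnF4 mutant and 55.8 and 50.5 in wt, a difference of −0.37 (adjusted p = 0.51, or 0.024 with the block). App, the amyloid precursor gene whose product Tmem59 family proteins act on, rose by 1.74 (adjusted p = 0.014), with 41.7 and 36.3 RPKM in the ZnF4 mutant and 9.9 and 12.1 in wt. Apart from Dlx1as, the other 8 genes of the DLX and MSX list were at 0.4 RPKM or below in every library, and 3 of them were at 0 in all. Over all lists, the calls in the ZnF4 mutant against wt were lost when either ZnF4 mutant library was left out, and those of App, Mpzl1, Gpr18 and the marker Rag1 when any 1 of the 6 was left out. The calls of P2ry10, Pcdh9 and the marker Epcam were kept in only 2 of the 6 fits that leave out 1 library. Over these 6 fits the log2 difference was 1.61 to 1.87 for App, 1.34 to 1.5 for Mpzl1 and −2.53 to −1.97 for Gpr18. It was 1.79 to 2.39 for Rag1, −2.81 to −2.44 for P2ry10 and −2.18 to −1.95 for Pcdh9.

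The labelled cell type was checked with 14 genes of pro-B and pre-B cells, all of which were tested. They summed to 3877.6 and 2636 RPKM in the ZnF4 mutant, 3896.5 and 3308.7 in ZnF1 mutant libraries and 3532.3 and 2709.3 in wt libraries. In the ZnF4 mutant against wt 1 of them rose (Rag1, log2 difference 2.09, limma adjusted p = 0.023) and 0 fell, or 3 and 1 with the block. Of all genes 1.43% were called as higher and 1.3% as lower, or 8.02% and 7.92% with the block. Several of the 6 genes are known from other cell types, and the markers of those types were mixed, with many at 0 and some well above it. In the T and NK cell list Cd3e, Cd3g, Cd8a, Cd8b1, Trat1 and Ncr1 were at 0 in all libraries, and the 14 genes summed to 17.6 and 22.4 RPKM in the ZnF4 mutant, 12.8 and 14.9 in ZnF1 mutant libraries and 40.7 and 24.1 in wt libraries. Of the same list Cd247, the CD3 zeta chain gene, was between 8.1 and 12.7 RPKM in all 6 libraries. Lat, a T cell adaptor gene, had 4.2 and 2.6 RPKM in ZnF4 mutant libraries, 2.4 and 1 in ZnF1 mutant libraries and 26.2 and 12.1 in wt libraries. Its limma adjusted p was 0.1 for the ZnF4 mutant against wt (0.0016 with the block) and 0.098 for the ZnF1 mutant against wt (0.0041 with the block). Of the neuronal list Snap25, Syt1, Gad1, Gad2 and Rbfox3 were at 0 in all, although Tubb3 was at 41.2 and 43.1 RPKM in the ZnF4 mutant, 18.6 and 7.3 in ZnF1 mutant libraries and 46.7 and 31.4 in wt libraries. Of the epithelial list Krt8 and Krt18 were at 0 in all, while Epcam was at 1.2 and 1.5 RPKM in the ZnF4 mutant, 4.4 and 1 in ZnF1 mutant libraries and 21.6 and 21.4 in wt libraries (limma adjusted p = 0.034 for the ZnF4 mutant against wt). Whether the cells behind Epcam, Lat or Tubb3 contribute to the levels of the 6 genes was not tested. In bulk cultures, fewer cells of a kind and less RNA per cell cannot be told apart, for the 6 genes or for any other gene here.

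Some features of the libraries touch these values. Granulocyte transcripts were high in ZnF1 mutant replicate 2 and wt replicate 1, where 10 markers summed to 1635.9 and 532.8 RPKM, against 0.5 to 53.3 in the other 4 libraries. Without these 2 libraries the ZnF4 minus wt differences of the 6 genes were −4.69 to −3.46, and the ZnF1 minus wt difference of Tmem59l was −0.97. That comparison sets ZnF1 mutant replicate 1 against wt replicate 2. The targeted gene, Ikzf1, was transcribed in all libraries at 188.2 and 170.2 RPKM in the ZnF4 mutant, 101.5 and 116.7 in ZnF1 mutant libraries and 89.2 and 85.9 in wt libraries. An RPKM for the whole transcript cannot show whether a single finger is lost.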

How the data were processed

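Per the file headers, the authors deposited RPKM values for RefSeq transcripts with transcript lengths, written to 1 decimal. Build mm9 and the tools TopHat and bedtools are named, with no version, in the submitters' processing notes. The counting of shared reads, the use of strand and the depth of the libraries are not given in the sources used here, so no counting interval is printed. The transcript lengths, deposited beside the RPKM values, were not used in any test, and no other score enters.

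Values of the 26531 transcripts were added up per symbol, giving 22099 genes, after 39 of 40 symbols that had become numbers were restored by accession, and 1 row without a gene was left out. The 11345 genes that reached 1 RPKM in 2 or more libraries entered limma 3.58.1 (R 4.3.3), run on log2(RPKM + 1) with a variance trend, 3 group means and all 6 libraries, Benjamini-Hochberg adjusted, threshold 0.05. The 6 genes passed this filter through the ZnF1 mutant and wt libraries; in the ZnF4 mutant only Mpzl2 and Gpr171 reached 1 RPKM. The fit had 3 residual and 2.32 prior degrees of freedom. It was run on simulated data with known changes, in which every library was drawn independently. The simulation left out the shared deviation of same-numbered libraries described below, so it cannot show how the fit behaves with it. A p-value here rests on how far the 2 libraries of a group lay apart, pooled over the 3 groups and drawn towards the spread of genes of similar level. That spread may be technical, although the labels call the libraries biological replicates.

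Replicates are numbered in the labels. Libraries that share a number deviated together from the means of their groups, with a correlation over genes of 0.754 for ZnF4 mutant and wt, 0.5 for ZnF1 mutant and wt and 0.715 for ZnF4 and ZnF1 mutant, so fits with the replicate number as a block are given beside calls that they change.

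The 6 genes and all lists were chosen with earlier results of these data known. Named were the 6 genes, Ikzf1, list genes with at least 1 RPKM in a library (those that passed and close relatives in full), 2 annotated genes on each side, the 3 nearest profiles without unnamed gene models, and the 10 lowest shares among other genes with at least 5 RPKM in wt. Some items that this rule names are not reported here. Relatives at or near 0 were added after their values were seen. Sequences come from the RefSeq promoter table of GRCm38.p6.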

Additional observations from a re-analysis of the deposited data

Results flagged for a closer look

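In 13 genes of the family and neighbour lists, the ZnF4 mutant and the ZnF1 mutant differed directly in the limma fit (adjusted p under 0.05 over all 11345 genes). None of these calls was kept in more than 2 of the fits that leave out 1 library, Amica1 was kept in 1, and Fcgr2b, Pcdh7 and Cdh5 were kept in 0. Lower in the ZnF4 than in the ZnF1 mutant, in both libraries of each group, were the P2Y-like receptor genes P2ry10 (log2 difference −3.1), Gpr174 (−3.08, with the ZnF4 mutant listed at 0), Gpr18 (−2.38), P2ry14 (−2.16) and Ptafr (−1.38). Lower too were Dlx1as (−2.42, with reads that cannot be told apart from those of Dlx1), the protocadherin genes Pcdh9 (−1.75) and Pcdh7 (−1.08), and the adhesion genes Igsf5 (−1.73) and Amica1 (−1.55). The Fc receptor genes Fcer1g and Fcgr2b differed by −1.73 and −0.97. Cdh5 was the one gene higher in the ZnF4 mutant, by 1.28, and it entered the test through that mutant alone. Of all genes tested 3.75% were lower and 1.61% higher in this comparison. Of the 12 myeloid markers 7 were lower in it. Of 7 tested stromal markers 2 were lower, Col1a2 (−2.07) and Cdh11 (−1.26). With the block 6 were lower, against 19.2% of all genes. Of these, Cdh11, Col3a1 and Pdgfrb entered the test only because of the ZnF1 mutant libraries, in which they were highest, so their values are a description. The stromal list summed to 62.5 and 64.6 RPKM in the ZnF4 mutant and to 225.4 and 126.5 in the ZnF1 mutant. The part of either list in the values of these genes was not tested.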

How the results depend on the processing

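For the 6 genes, every alternative kept the ZnF4 mutant below both other groups. The genes were chosen for ZnF4 mutant values far below the others, so no alternative could turn this and it is no test. The size of the log2 difference from wt moved with the pseudocount, for Tmem59l to −6.39 with 0.1 and −3.39 with 5, against −5.13 with 1. In the ZnF1 mutant against wt, the sign turned for Gpr171 without ZnF1 mutant replicate 1 (−0.04), where Mpzl2 was at −1.41 and Dlx1 at −0.77. It also turned for Mpzl2 (0.3) and Dlx1 (0.08) without wt replicate 1 and ZnF1 mutant replicate 2, an alternative chosen after seeing the data, under which Gpr171 was at 0.58. These values had not passed the test. Tmem59l passed with the replicate block alone.

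The counts of called genes were 309 in the ZnF4 mutant against wt, 0 in the ZnF1 mutant against wt and 609 between the ZnF4 and ZnF1 mutants. With the replicate block they were 1809, 1502 and 3979. Among genes with at least 5 RPKM in 2 libraries the first and last were 176 and 323, and in fits of the 4 libraries compared 86 and 234. Leaving out single libraries gave 0 to 119 genes in the ZnF4 mutant against wt, 0 in the ZnF1 mutant against wt and 0 to 306 between the mutants. Without the granulocyte-rich pair all 3 counts were 0. These fits have fewer residual degrees of freedom. In the ZnF1 mutant against wt, 1281 genes had an unadjusted limma p under 0.05. Other scalings, pseudocounts, no filter and single transcript rows kept each count within 1.5 times. Depth could not be read from the rounded values, so how well 0.2 RPKM can be told from 0 is unknown.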
